A study of Mus musculus with 27 samples.

Results

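The *Oas* family genes *Oas1a*, *Oas1g*, *Oas1b*, *Oas2*, *Oas3*, *Oasl1* and *Oasl2* were examined in RNA-seq data of *Setdb1* conditional knockout (cKO) iMEFs. They were taken as listed genes, 7 of 22190 genes with a name in the libraries, and no expression value was used to choose them. The data comprised 27 libraries in 12 groups of 3 experiments. The iMEFs are immortalized mouse embryonic fibroblasts of 1 cKO line, in which 4-hydroxytamoxifen (4OHT) triggers deletion of *Setdb1*, the gene of an H3K9 methyltransferase that silences endogenous retroviruses (ERVs). All groups, controls included, carry the conditional *Setdb1* allele. No group was given 4OHT without that allele, so an effect of 4OHT itself cannot be told apart from that of the deletion. The total RNA experiment had 3 libraries each of untreated cells, of cells labelled 4OHT day 5 (4OHT given for 4 days) and of cells labelled long-term KO, which the labels place more than 2 weeks after 4OHT. The siRNA experiment had 2 libraries each of cells given control siRNA (siCtrl), siRNA against *Dnmt1*, the maintenance DNA methyltransferase gene (siDnmt1), and each siRNA with 4OHT (4OHT + siCtrl, 4OHT + siDnmt1), collected at day 6. The inhibitor experiment had 2 libraries each of untreated cells, cells given 150 nM TSA (trichostatin A, a histone deacetylase inhibitor) for 24 h, cells given 1 µM PD0325901 (a MEK inhibitor, also spelled PD0325091 in the labels) for the last 24 h, cells at 4OHT day 6, and cells given 4OHT and PD0325901.

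OAS proteins are interferon-induced enzymes of the cytoplasm. On binding double-stranded RNA they make 2′-5′-linked oligoadenylates, which act as second messengers of the antiviral response and lead to the cleavage of viral and cellular RNA. *Oas1a* and *Oas1g* encode active small synthetases, whereas *Oas1b* encodes a form without synthetase activity that is known for resistance to flaviviruses. *Oas2* and *Oas3* encode larger proteins that join several synthetase units. *Oasl1* and *Oasl2* encode OAS-like proteins with ubiquitin-like domains. The mouse Oasl1 protein lacks synthetase activity and inhibits translation of *Irf7* mRNA, and Oasl2 retains synthetase activity. Fibroblasts express these genes at low levels and induce them in response to type I interferon.

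The members lie in 2 clusters on chromosome 5 (mm9, GENCODE vM1 genes). *Oasl2* (chr5:115346943-115362243, plus strand) and *Oasl1* (chr5:115373249-115387924, plus strand) form 1 cluster. *Oas2* (chr5:121180342-121199862), *Oas3* (chr5:121203107-121227670), *Oas1g* (chr5:121326151-121337622) and *Oas1a* (chr5:121346265-121357536) lie on the minus strand and *Oas1b* (chr5:121262644-121274186) on the plus strand of the other cluster. Only *Oasl2* and *Oas1b* were within 5 kb of an ERV element listed by the study. A VL30 element of the U3 III class (chr5:115339934-115345133, plus strand) ended 1809 bp before the start of *Oasl2*, and an IAPEz (LTR1a) element (chr5:121276833-121279834, minus strand) lay 2664 bp beyond the end of *Oas1b*.

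Promoters are shown because the members rose together at 4OHT day 5 and day 6, as described below, and because interferon-regulated promoters often hold a pair of GAAA repeats. RefSeq promoters (GRCm38.p6, 250 bases before to 50 bases after the start of the gene) were found for 5 of the 7 members, and their coordinates are those of the identical sequence in mm9. The letters GAAANNGAAA were searched on both strands (TTTCNNTTTC on the other), and matches, which may overlap, are in capitals. The promoters of *Oas1a* (chr5:121357485-121357784, minus strand), *Oas1g* (chr5:121337573-121337872, minus strand), *Oas3* (chr5:121227619-121227918, minus strand) and *Oasl2* (chr5:115346693-115346992, plus strand) read, 5′ to 3′:
Oas1a: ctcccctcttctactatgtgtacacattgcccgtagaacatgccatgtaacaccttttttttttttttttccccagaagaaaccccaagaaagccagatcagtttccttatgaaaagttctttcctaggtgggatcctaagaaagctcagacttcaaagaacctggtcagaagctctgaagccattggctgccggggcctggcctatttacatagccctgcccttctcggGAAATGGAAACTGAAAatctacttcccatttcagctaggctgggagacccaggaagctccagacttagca
Oas1g: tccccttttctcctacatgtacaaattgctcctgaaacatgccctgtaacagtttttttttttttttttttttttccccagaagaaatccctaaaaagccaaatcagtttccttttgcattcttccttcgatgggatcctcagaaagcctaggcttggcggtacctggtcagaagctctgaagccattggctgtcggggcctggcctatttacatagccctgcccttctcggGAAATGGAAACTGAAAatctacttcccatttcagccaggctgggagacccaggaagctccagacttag
Oas3: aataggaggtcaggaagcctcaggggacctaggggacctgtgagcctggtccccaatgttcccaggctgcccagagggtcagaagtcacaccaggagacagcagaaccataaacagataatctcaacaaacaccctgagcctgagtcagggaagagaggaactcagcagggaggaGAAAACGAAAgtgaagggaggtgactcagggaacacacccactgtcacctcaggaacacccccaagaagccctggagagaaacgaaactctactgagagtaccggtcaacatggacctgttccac
Oasl2: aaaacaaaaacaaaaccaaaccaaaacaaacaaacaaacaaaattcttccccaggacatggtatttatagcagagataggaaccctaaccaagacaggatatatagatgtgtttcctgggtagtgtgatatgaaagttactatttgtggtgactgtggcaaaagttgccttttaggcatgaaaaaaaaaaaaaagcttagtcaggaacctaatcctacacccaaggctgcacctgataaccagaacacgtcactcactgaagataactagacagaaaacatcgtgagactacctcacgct

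The capitals of *Oas1a* and *Oas1g* are 2 overlapping matches, GAAATGGAAA and GAAACTGAAA, which begin 20 and 14 bases before the start of *Oas1a* and 18 and 12 bases before that of *Oas1g*. These promoters share a run of 73 identical bases that holds both matches. *Oas3* has 1 match, GAAAACGAAA, 75 bases before its start. The letters were in neither the *Oasl2* nor the *Oasl1* promoter (chr5:115372999-115373298, plus strand). Of all 32851 promoters of this length, 3.44% hold a match. A match describes the letters in this window and is not evidence of a bound site. RefSeq promoters of *Oas1b* and *Oas2* were not used here.

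Values are FPKM (fragments per kilobase of transcript and M mapped fragments, where M is 1000000), a level per length, as the authors deposited them. In 7 of 27 libraries *Oas1a* and *Oas1g* had been assembled as 1 locus, so their FPKM were summed and are given as *Oas1a* + *Oas1g*, which leaves 6 units. Of the 50-base words in the transcripts of *Oas1a*, 53.0% also occur in *Oas1g*, and reads with several hits were assigned to 1 position, so the split between these genes is uncertain. *Oas1a* made up between 66.0% and 84.1% of the sum in the 11 libraries with separate loci and a sum of at least 1 FPKM. *Oas2*, *Oas3*, *Oasl1* and *Oasl2* share no such word with another *Oas* gene, and *Oas1b* shares 1.25%. *Oas1b* stands head to head with *Oas1c*, and since the strand setting of the libraries is not given in the sources used here, reads of transcripts that run past these starts cannot be told apart.

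The deposited intervals of genes with 1 exon implied a median of 31.5 M fragments per library in the total RNA experiment (29.9 to 32.6), 14.4 M in the siRNA experiment (13.3 to 15.1) and 12 M in the inhibitor experiment (10.6 to 12.2). Of 162 member values, 7 were listed at 0 and 100 reached 1 FPKM. The deposited interval of 3 of these 100 reached 0, those of *Oasl1* in siCtrl replicate 1, *Oasl2* in 4OHT day 6 replicate 2 and *Oas1a* + *Oas1g* in 4OHT + PD0325901 replicate 2. Differences are log2 fold changes of FPKM + 0.1, fitted with limma in each experiment, which understates the change of low genes, and values are not compared between experiments. A call required both an adjusted p under 0.05 and a change of 2-fold or more, and SE is the standard error of the log2 fold change. The labels do not say whether libraries came from separate cultures, so p-values measure the spread between these libraries, which may be technical. In bulk RNA, fewer cells of a type and less RNA per cell cannot be told apart. *Setdb1* itself was between 4.16 and 7.32 FPKM in all total RNA libraries and between 5.00 and 7.58 FPKM in all siRNA libraries. In the inhibitor experiment it was 8.76 and 10.1 FPKM in untreated libraries, was listed at 0 in 4OHT day 6 replicate 1 and both libraries of 4OHT and PD0325901, and was 5.30 FPKM in 4OHT day 6 replicate 2. A value per gene does not check the deletion of exons. *Dnmt1* was 12.2 and 10.6 FPKM in siDnmt1 and 12.2 and 11.4 FPKM in 4OHT + siDnmt1, against 80.5 and 73.4 FPKM in siCtrl. A header line of the library labelled PD0325901 replicate 2 names 4OHT with the inhibitor, whereas its label and another header line name the inhibitor alone, and it was used under its label.

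**Figure D1:**
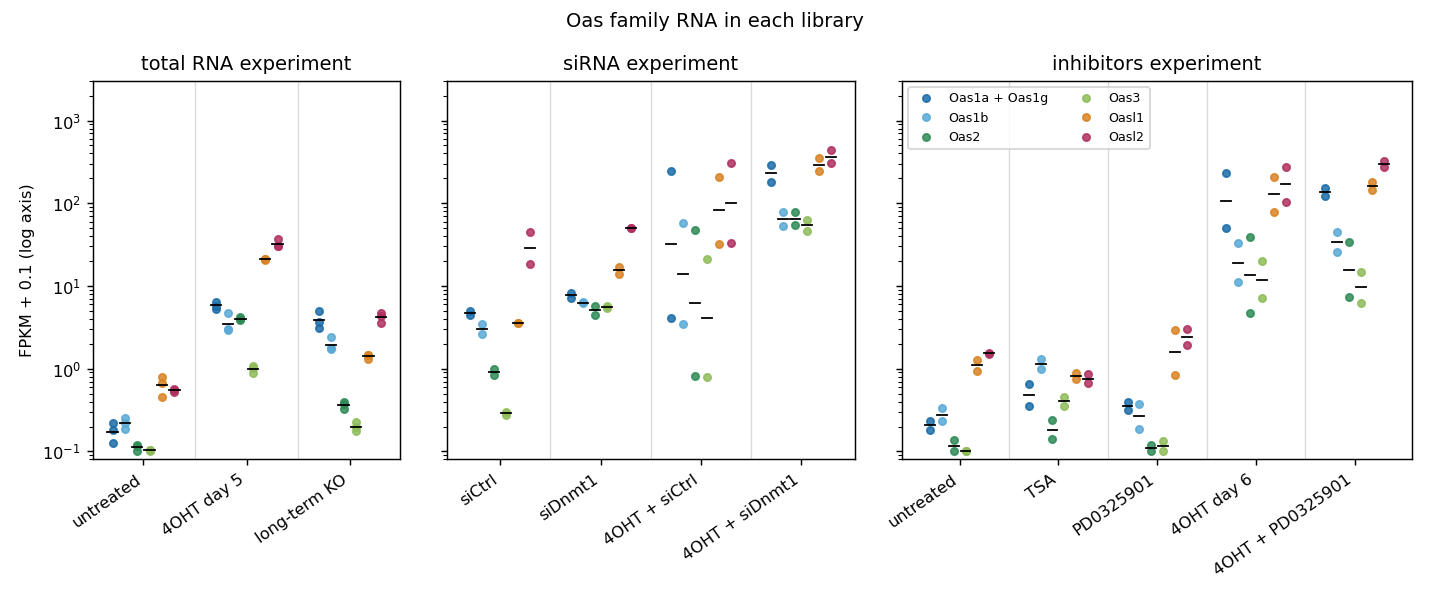
FPKM of each member (log axis) in the total RNA, siRNA and inhibitor experiments, with 1 point per library and a bar at the group mean on the log scale. Members were low in untreated libraries of the total RNA and inhibitor experiments (at most 1.46 FPKM) and higher in every library given 4OHT there; the 2 libraries of 4OHT + siCtrl lie far apart.

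In the total RNA experiment, the question was how these genes changed after 4OHT given to delete *Setdb1*. Members that were almost silent in untreated iMEFs rose at 4OHT day 5, by the largest log2 fold change in *Oasl2* (5.88) and the smallest in *Oas1b* (3.97). Of the 5 units tested, 5 were called higher, against 2.05% of 9740 genes. No member reached 1 FPKM in an untreated library, so each passed the filter (1 FPKM in 3 libraries) only through libraries in which it was high, and nothing is read from this share. With no filter on low values, 6 of 6 units were called higher, against 2.35% of 15298 genes. The median log2 fold change of the 5 units was 5.08, and that of all genes tested was 0.00.

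Among the *Oas1* genes, *Oas1a* + *Oas1g* was 0.119, 0.0247 and 0.0839 FPKM in untreated libraries and 5.67, 6.27 and 5.23 FPKM at day 5. *Oas1b* was 0.123, 0.155 and 0.0874 FPKM in untreated libraries and 2.90, 4.65 and 2.80 FPKM at day 5. For both genes the day 5 and untreated libraries lay far apart. On the log2 scale the difference was 5.08 for *Oas1a* + *Oas1g* (SE 0.24, limma adjusted p = 3.84e-06). It was 3.97 for *Oas1b* (SE 0.23, limma adjusted p = 1.2e-05).

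Of the larger synthetases, *Oas2* was listed at 0 in untreated replicate 1 and was 0.0175 and 0.0197 FPKM in the others, each resting on about 3 fragments. At day 5 it was 3.76, 4.07 and 3.90 FPKM, so the groups did not overlap (log2 fold change 5.16, SE 0.15, limma adjusted p = 2e-07). *Oas3* was at most 0.00533 FPKM in untreated libraries and 0.795, 0.912 and 0.980 FPKM at day 5. The interval of the day 5 replicate 3 value reached 0. *Oas3* stayed under 1 FPKM in all 9 libraries and was therefore left out of the test. With no filter on low values its log2 fold change was 3.26 (SE 0.12, limma adjusted p = 1.27e-06).

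The OAS-like genes reached the highest levels. *Oasl1* was 0.361, 0.701 and 0.571 FPKM in untreated libraries and 21, 21.3 and 20.4 FPKM at day 5, a log2 fold change of 5.06 (SE 0.18, limma adjusted p = 7.34e-07). *Oasl2* was 0.422, 0.465 and 0.458 FPKM in untreated libraries and 30.4, 36.4 and 30.1 FPKM at day 5, a log2 fold change of 5.88 (SE 0.12, limma adjusted p = 3.93e-08). The interval of *Oasl2* in untreated replicate 2 reached 0. At day 5 the order of levels was *Oasl2*, *Oasl1*, *Oas1a* + *Oas1g*, then *Oas2* and *Oas1b*, whose ranges overlapped, and last *Oas3*.

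**Figure D2:**
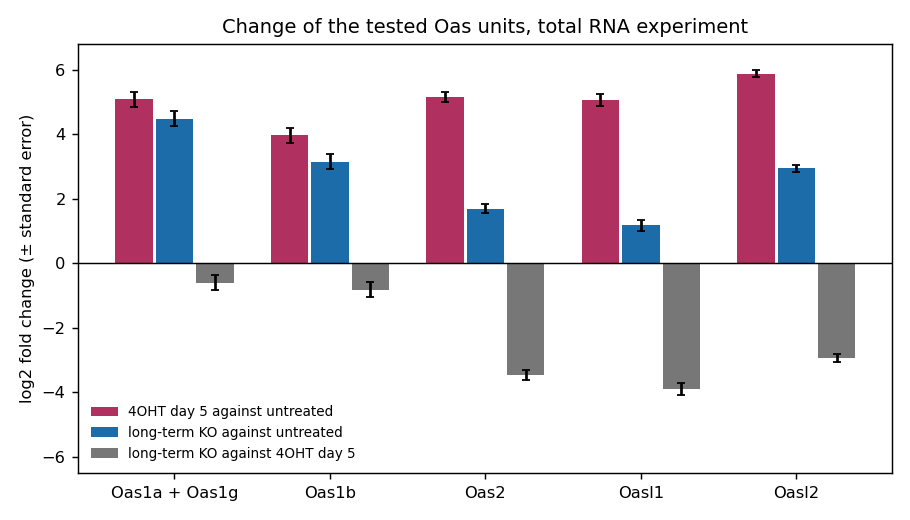
Log2 fold change of FPKM + 0.1 (limma) for the 5 members tested in the total RNA experiment, in the 3 comparisons, with bars of 1 standard error. The 5 members lie between 3.97 and 5.88 at 4OHT day 5, whereas long-term KO against 4OHT day 5 separates *Oas1a* + *Oas1g* (-0.60) and *Oas1b* (-0.82) from *Oas2*, *Oasl1* and *Oasl2* (-3.46, -3.89 and -2.94).

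In long-term KO cells the members remained above untreated cells, but by unequal amounts. Of 5 units tested, 5 were called higher, against 7.49% of all genes, with a median log2 fold change of 2.94 and 0.06 for all genes. As at day 5, no unit passed the filter in untreated libraries, so nothing is read from this share. With no filter the count was 5 of 6, against 6.92% of all genes. *Oas1a* + *Oas1g* was 4.86, 3.56 and 2.99 FPKM (log2 fold change 4.48, SE 0.24, limma adjusted p = 1.73e-06). *Oas1b* was 1.70, 2.30 and 1.63 FPKM (log2 fold change 3.15, SE 0.23, limma adjusted p = 9.24e-06). Both were within 2-fold of their day 5 levels, as given below.

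The other members were further below their day 5 levels. *Oas2* was 0.276, 0.226 and 0.292 FPKM (log2 fold change against untreated 1.70, SE 0.15, limma adjusted p = 2.17e-05). *Oasl1* was 1.36, 1.22 and 1.37 FPKM (log2 fold change 1.17, SE 0.18, limma adjusted p = 0.000622). *Oasl2* was 4.30, 3.49 and 4.65 FPKM (log2 fold change 2.94, SE 0.12, limma adjusted p = 3.58e-07). No long-term KO library of these genes overlapped the untreated libraries, and 3972 of 9740 genes were likewise higher in every long-term KO library. The calls of *Oas2* and *Oasl1* were lost with a pseudocount of 1 (0.32 and 0.59) and with quantile normalization (0.95 and 0.83), and that of *Oasl1* also without untreated replicate 1 (0.95). *Oas3* was 0.0748, 0.0997 and 0.126 FPKM, and with no filter its log2 fold change against untreated was 0.94 (limma adjusted p = 0.000273), under the fold limit.

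The direct comparison of long-term KO with 4OHT day 5, which shares its libraries with both comparisons above, separated the members. *Oas2* fell by 3.46 on the log2 scale (SE 0.15, limma adjusted p = 5.48e-07). *Oasl1* fell by 3.89 (SE 0.18, limma adjusted p = 9.01e-07), and *Oasl2* fell by 2.94 (SE 0.12, limma adjusted p = 4.1e-07). Of 5 units tested, 3 were called lower, against 5.88% of all genes. *Oas2* passed the filter only through the day 5 libraries, where it was high, so nothing is read from this share. *Oas1b* differed by -0.82 (SE 0.23, limma adjusted p = 0.0143), which is under the fold limit, and *Oas1a* + *Oas1g* by -0.60 (SE 0.24, limma adjusted p = 0.0567). All 5 units were lower in every long-term KO library than in every day 5 library, which held for 33.6% of all genes. With no filter *Oas3* fell by 2.32 (limma adjusted p = 2.23e-06).

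The unequal decline showed in ratios within each library, which do not depend on its scaling. The ratio of *Oas1a* + *Oas1g* to *Oasl1* was 0.27, 0.29 and 0.26 at day 5 and 3.56, 2.91 and 2.19 in long-term KO. The ratio of *Oas1b* to *Oasl1* was 0.14, 0.22 and 0.14 at day 5 and 1.24, 1.88 and 1.20 in long-term KO. Within the OAS-like pair, the ratio of *Oasl1* to *Oasl2* was 0.69, 0.58 and 0.68 at day 5 and 0.32, 0.35 and 0.29 in long-term KO. In each ratio the groups did not overlap. The log2 differences were 3.37, 3.13 and -1.02, each with p = 0.1 in a two-sided exact permutation test, the smallest value that 3 libraries against 3 allow. These ratios restate the comparison above in the same libraries and members and are not separate support for it. In long-term KO the ranges of *Oasl2* and *Oas1a* + *Oas1g* overlapped at the top of the order, followed by *Oas1b*, *Oasl1*, *Oas2* and *Oas3*.

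The siRNA experiment asked how members changed with *Dnmt1* knockdown and with 4OHT given to delete *Setdb1*, alone and together. Members were expressed in siCtrl cells, which had been transfected with RNA. The highest levels of *Oas2* (78.6 and 53.8 FPKM), *Oas3* (62.7 and 46.2 FPKM) and *Oasl1* (348 and 248 FPKM) in this experiment were those of both 4OHT + siDnmt1 libraries. *Oasl2* was highest in 4OHT + siDnmt1 replicate 1 (439.9 FPKM), and at 306 FPKM in replicate 2 it was level with replicate 1 of 4OHT + siCtrl. All comparisons below share control libraries with at least 1 other.

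In siCtrl, *Oas1a* + *Oas1g* was 4.87 and 4.36 FPKM and *Oas1b* was 3.33 and 2.51 FPKM. *Oas2* was 0.749 and 0.890 FPKM and *Oas3* was 0.176 and 0.203 FPKM. *Oasl1* was 3.48 and 3.45 FPKM, and *Oasl2*, the highest member here, was 18.4 and 45.1 FPKM. With siDnmt1 alone, *Oas1a* + *Oas1g* was 8.21 and 7.13 FPKM and *Oas1b* was 6.07 and 6.25 FPKM. The large synthetases differed more, with *Oas2* at 5.59 and 4.41 FPKM and *Oas3* at 5.27 and 5.56 FPKM. *Oasl1* was 13.9 and 17.0 FPKM, and *Oasl2* was 50.5 and 50.3 FPKM.

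All 6 units were higher in both siDnmt1 libraries than in both siCtrl libraries, which held for 26.9% of 11225 genes. None was called, against 2.33% of all genes called higher, and 2 had an unadjusted p under 0.05, *Oas3* and *Oasl1*. The log2 fold changes ranged from 0.72 for *Oas1a* + *Oas1g* to 4.25 for *Oas3* (SE 1.35, limma adjusted p = 0.115), with a median of 1.59 and -0.09 for all genes. The libraries of 4OHT + siCtrl, which differed greatly, entered the estimate of spread in this fit. With 4OHT + siCtrl replicate 2 left out, *Oas1b* (1.07, adjusted p = 0.0267), *Oas2* (2.47, adjusted p = 0.00339), *Oas3* (4.25, adjusted p = 0.000386) and *Oasl1* (2.12, adjusted p = 0.00302) were called higher with limma. The count was also 4 without replicate 1 of that group, and 4 with only siCtrl and siDnmt1 in the fit.

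The 2 libraries of 4OHT + siCtrl stood apart from each other. *Oas1a* + *Oas1g* was 247 FPKM in replicate 1 and 4.04 FPKM in replicate 2, and *Oas1b* was 57.9 and 3.34 FPKM. *Oas2* was 47.0 and 0.717 FPKM, and *Oas3* was 20.9 and 0.684 FPKM. *Oasl1* was 209 and 31.9 FPKM, and *Oasl2* was 306 and 32.5 FPKM. In replicate 2, *Oas1a* + *Oas1g*, *Oas2* and *Oasl2* were thus no higher than in the siCtrl library with the higher value, *Oas1b* was level with that library, and *Oasl1* and *Oas3* were above both. The log2 difference between the replicates had a median of 4.41 over the 6 units (2.71 to 5.90), against 0.32 over all genes tested. *Irf7*, a transcription factor of the interferon response, differed likewise (279 and 14.6 FPKM), as did the interferon gene *Ifnb1* (4.08 and 0.727 FPKM). *Dnmt1* (78.7 and 78.3 FPKM) and *Cd209c* (15.8 and 15.2 FPKM) did not, and *Cd209c* was 0.999 and 0.547 FPKM in siCtrl. *Krt8* (0.215 and 6.97 FPKM) and *Krt18* (0.336 and 3.67 FPKM) were instead higher in replicate 2. What set these libraries apart was not tested.

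**Figure D3:**
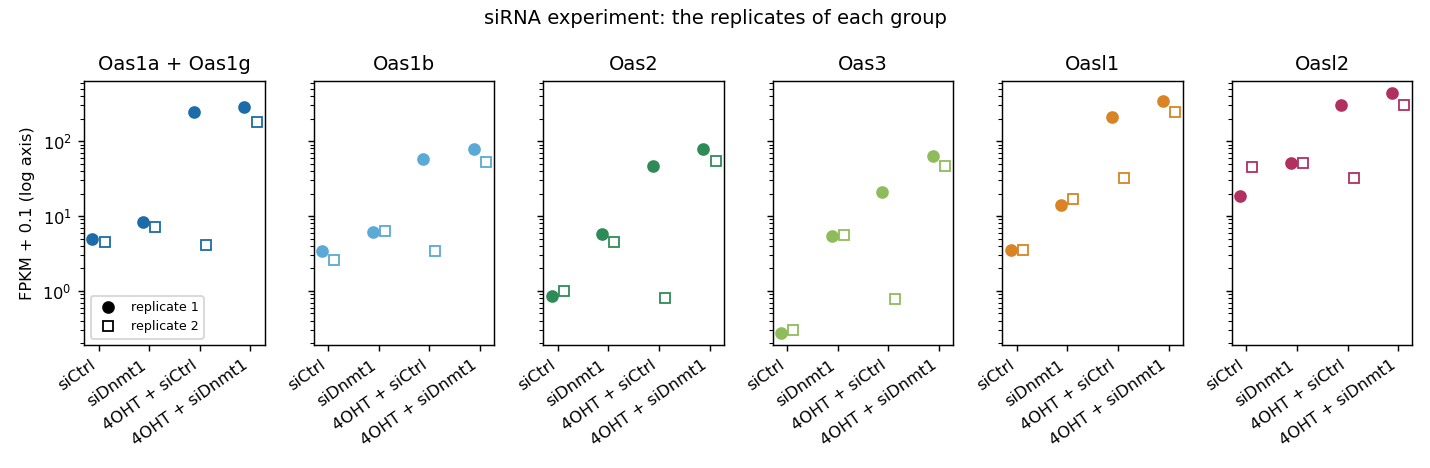
FPKM (log axis) of each member in the 4 groups of the siRNA experiment, with a filled circle for replicate 1 and an open square for replicate 2. In 4OHT + siCtrl the replicates differ most, for example 247 and 4.04 FPKM for *Oas1a* + *Oas1g*, and in 4OHT + siDnmt1 both are high.

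For 4OHT + siCtrl against siCtrl, *Oasl1* alone was called higher (log2 fold change 4.52, SE 0.79, limma adjusted p = 0.0198), 1 of 6 units against 2.61% of all genes. The log2 fold changes ranged from 1.79 to 4.52, with a median of 2.76 and 0.08 for all genes. Without replicate 2 of 4OHT + siCtrl, 6 units were called (3.41 to 6.18), and without replicate 1, 2 were called (-0.18 to 3.17). These 2 were *Oasl1* (3.17, limma adjusted p = 0.00164) and *Oas3* (1.44, limma adjusted p = 0.0132). In such fits 4OHT + siCtrl is 1 library that is assumed to vary like the other groups, so their p-values say nothing of the spread within it. The call of *Oasl1* in the full fit was lost when any siCtrl or siDnmt1 library was left out.

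With both treatments, *Oas1a* + *Oas1g* was 289.7 and 181 FPKM and *Oas1b* was 77.6 and 53.1 FPKM. Every unit was above both siCtrl libraries in both libraries, which held for 4745 of 11225 genes. All 6 units were called higher than in siCtrl, against 8.70% of all genes. The log2 fold change was largest for *Oas3* (7.54, SE 1.35, limma adjusted p = 0.0101), followed by *Oasl1* (6.37, SE 0.79, limma adjusted p = 0.0031). It was 6.15 for *Oas2* (SE 1.67, adjusted p = 0.0347), 5.60 for *Oas1a* + *Oas1g* (SE 1.68, adjusted p = 0.046), 4.43 for *Oas1b* (SE 1.17, adjusted p = 0.0321) and 3.66 for *Oasl2* (SE 1.00, adjusted p = 0.0348), all with limma. The median was 5.88, and 0.07 for all genes. With no filter on low values the count was 5, against 8.37% of all genes, without *Oas1a* + *Oas1g* (limma adjusted p = 0.0608). The count was 6 without either 4OHT + siCtrl library, and between 1 and 2 without any 1 of the other 6 libraries, with each log2 fold change still above 3.

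Against siDnmt1 alone, only *Oasl1* was called higher in 4OHT + siDnmt1 (log2 fold change 4.25, SE 0.79, limma adjusted p = 0.0267), against 3.38% of all genes. The 6 log2 fold changes ranged from 2.86 to 4.88 (median 3.52, and 0.14 for all genes), 5 of them with an unadjusted p under 0.05. Without either 4OHT + siCtrl library, 6 units were called, and without any 1 of the other 6 libraries, none. Against 4OHT + siCtrl, no unit was called, against 1.01% of all genes, and 1 had an unadjusted p under 0.05, *Oas3* (3.73, limma adjusted p = 0.211). The range was 1.84 to 3.73 (median 2.51, and -0.02 for all genes). Without replicate 2 of 4OHT + siCtrl it was -0.11 to 1.36 with *Oas3* called (1.36, limma adjusted p = 0.0349), and without replicate 1 it was 3.20 to 6.32 with 6 called. The interaction of 4OHT and siDnmt1 was called for no unit, against 0.116% of all genes called higher, and none had an unadjusted p under 0.05. It ranged from -0.52 to 2.12 (median 1.00, and 0.07 for all genes). Without replicate 2 of 4OHT + siCtrl it was -2.89 to -0.54, with *Oas3* called lower (-2.89, limma adjusted p = 0.0226), and without replicate 1 it was 1.08 to 5.07, with 4 called higher. All of these calls rest on 1 library of 4OHT + siCtrl, with the spread taken from the other groups. The direction of the interaction therefore rested on which of these libraries was used.

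In the inhibitor experiment, members were low in untreated cells and high in every library given 4OHT. *Oas1a* + *Oas1g* was 0.0841 and 0.136 FPKM in untreated libraries and 49.6 and 229 FPKM at 4OHT day 6, and *Oas1b* was 0.130 and 0.239 against 11.2 and 32.5 FPKM. *Oas2* was 0.0386 FPKM and listed at 0 in untreated libraries, and 4.61 and 38.9 FPKM at day 6. *Oas3* was listed at 0 in both untreated libraries, and was 7.05 and 19.7 FPKM at day 6. *Oasl1* was 0.848 and 1.18 FPKM in untreated libraries and 77.7 and 210.3 FPKM at day 6, and *Oasl2* was 1.40 and 1.46 against 104 and 272 FPKM. *Oasl2* was again the highest member in both day 6 libraries, whereas *Oasl1* was above *Oas1a* + *Oas1g* in replicate 1 and below it in replicate 2. The day 6 libraries differed from each other by a median of 1.5 on the log2 scale over the 6 units (1.38 to 3.05), against 0.24 over all genes, with replicate 2 higher for each unit.

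All 6 units were called higher at 4OHT day 6, against 5.05% of 11903 genes. Only *Oasl1* and *Oasl2* passed the filter (1 FPKM in 2 libraries) in libraries without 4OHT, and the other 4 units passed through the groups in which they were high. Nothing is read from this share. With no filter the count was also 6, against 3.86% of 17146 genes. The log2 fold change was 9.0 for *Oas1a* + *Oas1g* (SE 0.64, limma adjusted p = 0.000243) and 6.10 for *Oas1b* (SE 0.57, limma adjusted p = 0.000777). It was 6.86 for *Oasl1* (SE 0.63, limma adjusted p = 0.000697) and 6.78 for *Oasl2* (SE 0.42, limma adjusted p = 0.000141). For *Oas2* and *Oas3*, fitted values of 6.85 and 6.89 (adjusted p = 0.00401 and 0.000387, limma) depend on the pseudocount, since untreated libraries were listed at or near 0. The median was 6.85, and 0.00 for all genes. This count was 6 without any 1 of the 10 libraries.

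PD0325901 alone gave no called change in a member. *Oas1a* + *Oas1g* was 0.293 and 0.214 FPKM, *Oas1b* was 0.0891 and 0.272 FPKM, and *Oas2* and *Oas3* were at most 0.0321 FPKM. *Oasl1* was 2.87 and 0.733 FPKM, and *Oasl2* was 1.86 and 2.93 FPKM. No unit was called, against 2.99% of all genes called higher, and none had an unadjusted p under 0.05 (log2 fold changes -0.10 to 0.75).

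With 4OHT and PD0325901, *Oas1a* + *Oas1g* was 123 and 151 FPKM and *Oas1b* was 25.7 and 45.0 FPKM. *Oas2* was 7.32 and 33.5 FPKM, and *Oas3* was 6.11 and 14.8 FPKM. *Oasl1* was 146 and 179.7 FPKM, and *Oasl2* was 270.3 and 324 FPKM. As at 4OHT day 6, replicate 2 was the higher library for each unit. The ranges of all 6 units overlapped those at 4OHT day 6, though *Oasl2* did so only narrowly. None was called against 4OHT day 6, against 2.29% of all genes called higher, and none had an unadjusted p under 0.05 (log2 fold changes -0.31 to 0.83, median 0.35, and 0.04 for all genes). Without 4OHT day 6 replicate 2, 1 unit was called, *Oasl2* (1.5, limma adjusted p = 0.0481). Against PD0325901 alone, 6 units were called higher, against 3.34% of all genes, with log2 fold changes between 6.39 for *Oas3* and 8.60 for *Oas1a* + *Oas1g*. This count was also 6 without PD0325901 replicate 2, and 6 with no filter, against 2.36% of all genes. As at 4OHT day 6, only *Oasl1* and *Oasl2* passed the filter in libraries without 4OHT, so nothing is read from the filtered share. The interaction of 4OHT and PD0325901 was called for no unit, against 0.193% of all genes called lower, and ranged from -0.51 to 0.91, with no unadjusted p under 0.05.

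With TSA, *Oas1b* and *Oas3* were called higher at low levels, and no other member was called. *Oas1b* was 0.889 and 1.20 FPKM with TSA against 0.130 and 0.239 FPKM in untreated libraries (log2 fold change 2.02, SE 0.57, limma adjusted p = 0.0174). *Oas3* was 0.257 and 0.353 FPKM with TSA, which rested on about 16 and 22 fragments, and was listed at 0 in both untreated libraries (2.01, SE 0.55, limma adjusted p = 0.0162). These 2 of 6 units were called higher, against 19.0% of all genes (2 of 6 against 20.7% with no filter). *Oas3* and *Oas1b* had passed the filter only through groups given 4OHT, and 2 of 6 is not read as a result about the members. *Oas1a* + *Oas1g* was 0.548 and 0.256 FPKM (1.20, limma adjusted p = 0.147) and *Oas2* was 0.138 and 0.0396 FPKM (0.63, limma adjusted p = 0.624). The OAS-like genes lay in the other direction, below both untreated libraries. *Oasl1* was 0.793 and 0.643 FPKM (-0.44, limma adjusted p = 0.585), and *Oasl2* was 0.766 and 0.569 FPKM (-1.01, limma adjusted p = 0.0746). Neither of the higher calls was made with a pseudocount of 1 (0.79 for *Oas1b* and 0.38 for *Oas3*) or with quantile normalization (0.09 and 0.34). The count was also 0 without untreated replicate 1 or TSA replicate 2, and 1 without untreated replicate 2 or TSA replicate 1. Without either 4OHT day 6 library it was 3, with *Oas1a* + *Oas1g* as the added call (1.20, limma adjusted p = 0.0198 and 0.0205). *Oasl2* was then called lower (-1.01, limma adjusted p = 0.0120 and 0.0125). With only these groups in the fit, *Oasl2* alone passed the filter and was called lower (-1.01, limma adjusted p = 0.0145). Under quantile normalization *Oasl1* (-2.17) and *Oasl2* (-2.70) were called lower.

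RNA of the element near *Oasl2* was compared with the level of the gene. Fragments were taken from assembled loci without a gene annotation that lay at least 50% inside the element, and are given per kb of element per M fragments of the library. VL30 and IAPEz elements are repeats with many similar copies, and a read with several hits was kept at 1 position. The fragments given for an element may therefore include reads of other copies, and reads of this copy may be missing. In the total RNA experiment no such locus was found in untreated libraries, and the element had 1.32 to 2.04 at 4OHT day 5 and 0.0980 to 0.391 in long-term KO, the order of *Oasl2* itself. With siDnmt1 it had 1.55 to 1.72 and with 4OHT + siDnmt1 7.84 to 10.5, and siCtrl had no locus, although *Oasl2* was 18.4 and 45.1 FPKM there. In 4OHT + siCtrl it had 5.49 in replicate 1, where *Oasl2* was 306 FPKM, and 8.38 in replicate 2, where *Oasl2* was 32.5 FPKM. The fragments assigned to the element and the level of the gene thus took opposite orders between these replicates.

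In the inhibitor experiment the element and the gene took different orders. Element RNA was 9.78 to 17.6 with TSA, the highest in this experiment, where *Oasl2* was 0.766 and 0.569 FPKM. It was 6.45 to 7.80 at 4OHT day 6, where *Oasl2* was 104 and 272 FPKM. No locus was found with 4OHT and PD0325901, where *Oasl2* was 270.3 and 324 FPKM. The absence of a locus, as in 11 of 27 libraries, cannot be read as absence of element RNA. The assembled locus of *Oasl2* reached the element in 0 of 27 libraries. The element beyond *Oas1b* had a locus in 4 of 27 libraries, those of siDnmt1 (6.91 to 7.45) and 4OHT + siDnmt1 (2.27 to 2.75), and the *Oas1b* locus reached it in 0 of 27. Between these groups *Oas1b* took the opposite order to its element, with 6.07 and 6.25 FPKM in siDnmt1 and 77.6 and 53.1 FPKM in 4OHT + siDnmt1. No locus was found in siCtrl, where *Oas1b* was 3.33 and 2.51 FPKM, or in 4OHT + siCtrl, where it was 57.9 and 3.34 FPKM.

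**Figure D4:**
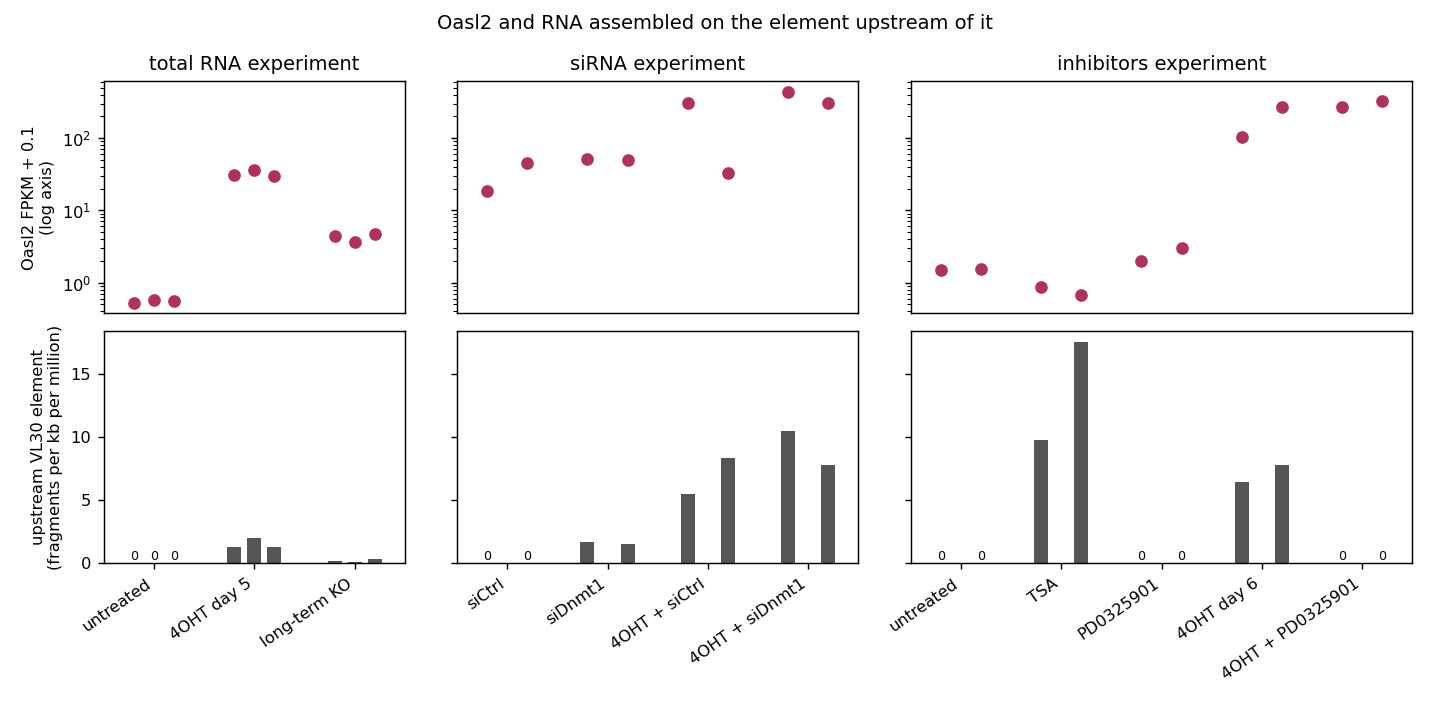
FPKM of *Oasl2* (log axis) over RNA of the VL30 element before it (fragments per kb of element per M, where 0 stands for no assembled locus), with 1 point per library. The element values may include reads of other VL30 copies. Within the inhibitor experiment, TSA libraries have the most element RNA (9.78 and 17.6) with *Oasl2* under 1 FPKM, and 4OHT + PD0325901 libraries have no element locus and *Oasl2* of 270.3 and 324 FPKM.

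Genes that act with the OAS proteins were listed for comparison, and none of these lists is independent of earlier results. The list of the oligoadenylate pathway held *Pde12*, *Akap7* and *Enpp1*, whose products degrade the oligoadenylates, and *Abce1*, whose product restrains their action. None was called among the 3 tested at 4OHT day 5 or the 4 tested at 4OHT day 6. In long-term KO against untreated *Enpp1* fell by 2.53 (limma adjusted p = 2.42e-06), and in 4OHT + siDnmt1 against siCtrl *Akap7* rose by 1.57 (limma adjusted p = 0.0156). *Enpp1* was also called lower in 5 other comparisons and higher with siDnmt1 (1.20, limma adjusted p = 0.0499), and no other gene of this list was called.

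Genes of type I interferon signalling (receptors, *Jak1*, *Tyk2*, *Stat2* and *Irf* genes) were called higher for 3 of 9 units at 4OHT day 5 (2.05% of all genes), with *Irf7* at 4.96 (limma adjusted p = 8.38e-08). The units of *Stat2* and *Irf9* there were joined with *Pan2* and *Rnf31*. The list had 3 of 9 higher in long-term KO against untreated (7.49% of all genes) and 2 of 9 lower against day 5 (5.88% of all genes), with *Irf7* at -1.85 (limma adjusted p = 3.75e-06). It had 5 of 10 higher in 4OHT + siDnmt1 against siCtrl (8.70% of all genes), 4 of 10 higher at 4OHT day 6 (5.05% of all genes) and 1 of 10, *Irf7*, with PD0325901 (2.99% of all genes). With TSA it had 2 of 10 higher, about the 19.0% of all genes. *Irf7* was 1.23 and 1.59 FPKM in untreated libraries of the inhibitor experiment and 7.89 and 8.11 FPKM with TSA, a log2 fold change of 2.43 (limma adjusted p = 0.0016). *Irf7* was thus called higher with TSA. The calls of *Oas1b* and *Oas3* with TSA were lost in several alternatives and are not read as a result, as given above. *Oasl1* (-0.44) and *Oasl2* (-1.01) were not called in the main fit.

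Sensors of RNA and DNA were called higher for 5 of 9 units at day 5, against 2.05% of all genes. Among them were *Ifih1*, the gene of the RNA sensor MDA5 (3.43, limma adjusted p = 2.51e-07), and *Zbp1*, a sensor of Z-form nucleic acids (5.17, limma adjusted p = 8.04e-06). The count was 2 of 9 in long-term KO against untreated (7.49% of all genes), with 4 of 9 lower than at day 5 (5.88% of all genes). It was 8 of 10 in 4OHT + siDnmt1 against siCtrl (8.70% of all genes) and 8 of 10 at 4OHT day 6 (5.05% of all genes). With TSA 3 of 10 were lower, against 12.7% of all genes, *Zbp1* among them (-3.34, limma adjusted p = 0.0108).

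In the total RNA experiment the interferon genes with a value of their own were low. Their summed level, over 17 genes, was at most 0.0463 FPKM in untreated total RNA libraries, 0.128 to 0.630 FPKM at day 5 and 0.0704 to 0.105 FPKM in long-term KO. The 1 interferon unit tested there was of joined genes and is not in this sum. It was called higher than in untreated cells at day 5 (2.71) and in long-term KO (2.35), and the level of the interferon gene in it is not known. In the siRNA experiment the sum, over 18 genes, was at most 0.237 FPKM in siCtrl, 0.428 to 1.11 FPKM in siDnmt1, 2.43 to 6.36 FPKM in 4OHT + siCtrl and 12.1 to 35.6 FPKM in 4OHT + siDnmt1. In the inhibitor experiment it was at most 0.124 FPKM in untreated cells and 0.192 FPKM with PD0325901, 1.17 to 1.26 FPKM with TSA, 2.55 to 2.84 FPKM at 4OHT day 6 and 5.83 to 6.62 FPKM with 4OHT and PD0325901. The highest sums were in groups in which members were high, but the orders did not match in every library. In 4OHT + siCtrl the lower sum, 2.43 FPKM, was that of replicate 2. There *Oas1a* + *Oas1g*, *Oas2* and *Oasl2* were no higher than in the siCtrl library with the higher value. With TSA, 1 of 3 interferon units tested was called higher (19.0% of all genes), whereas *Oasl1* and *Oasl2* were below both untreated libraries. *Ifnb1* was listed at 0 in all libraries of untreated, siCtrl, TSA, PD0325901 and long-term KO cells. It was 26.2 and 8.54 FPKM in 4OHT + siDnmt1, 1.01 and 2.03 FPKM at 4OHT day 6 and 3.41 and 2.51 FPKM with 4OHT and PD0325901. *Ifnb1* was called higher at 4OHT day 6 (3.94, limma adjusted p = 0.000603), a value that depends on the pseudocount.

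Markers of cell types were read beside the members. Fibroblast markers were present in every library but were lower in several groups in which members were high. Their sum was 4959.7 to 5060.2 FPKM in siCtrl, 4047 to 4220.1 FPKM in siDnmt1, 2326.7 to 3659.6 FPKM in 4OHT + siCtrl and 2388 to 2429 FPKM in 4OHT + siDnmt1. Against siCtrl, 5 of 9 were called lower in 4OHT + siCtrl (3.36% of all genes) and 6 of 9 in 4OHT + siDnmt1 (6.74% of all genes), with medians of -1.56 and -2.19. The sum was 2957 to 3208 FPKM in untreated libraries of the inhibitor experiment and 2433 to 2498 FPKM at 4OHT day 6, where 6 of 9 were called lower (6.10% of all genes, median -1.13). With TSA 5 of 9 were called lower (12.7% of all genes) and 2 higher (19.0% of all genes), with a sum of 3366 to 3459 FPKM. In the total RNA experiment the sum was 1666 to 1681 FPKM in untreated, 1370.2 to 1455 FPKM at day 5 and 1766 to 1833 FPKM in long-term KO libraries. At day 5, 1 of 7 was called lower, against 123 of 9740 genes. Of 12 haematopoietic markers, 9 had a value of their own in the total RNA and 11 in the other experiments. *Cd3e* and *Tyrobp* were listed at 0 in all libraries, *Ptprc* was at most 0.131 FPKM and *Csf1r* at most 0.533 FPKM. The summed haematopoietic markers were 3.92 to 5.03 FPKM in siCtrl and 7.03 to 7.09 FPKM in siDnmt1. They were 4.95 to 11.5 FPKM in 4OHT + siCtrl and 11.3 to 11.6 FPKM in 4OHT + siDnmt1. In 4OHT + siDnmt1 against siCtrl, 2 of 2 tested were called higher (8.70% of all genes), with a median of 1.42. The sum was 62.4 to 68.1 FPKM with TSA, nearly all of it *Cd68*, and 1 of 2 tested was called higher there (19.0% of all genes). It was 4.69 to 15.3 FPKM in the other inhibitor groups and 0.979 to 2.18 FPKM in the total RNA groups. All 4 epithelial markers had values, and their sum was 0.677 to 0.986 FPKM in siCtrl, 55.4 to 55.8 FPKM in siDnmt1, 1.12 to 12.6 FPKM in 4OHT + siCtrl and 53.5 to 86.2 FPKM in 4OHT + siDnmt1, mostly *Krt8* and *Krt18*. It was 31.3 to 32.4 FPKM with TSA, mostly *Epcam*, and 4.19 to 5.27 FPKM at 4OHT day 5 against 1.22 to 1.56 FPKM in untreated cells. At 4OHT day 6, where all members were called, it was at most 2.40 FPKM. Against siCtrl, 2 of 3 epithelial markers were called higher with siDnmt1 (2.33% of all genes) and with 4OHT + siDnmt1 (8.70% of all genes). Against untreated, 1 of 2 was called higher at day 5 (2.05% of all genes) and 2 of 2 with TSA (19.0% of all genes). Against untreated, 1 of 2 was called lower in long-term KO (601 of 9740 genes) and with PD0325901 (489 of 11903 genes). Endothelial and pluripotent markers summed to at most 2.16 and 2.18 FPKM in any library. The 1 endothelial marker tested was called higher than in untreated cells with TSA (3.67, 19.0% of all genes). It was also called higher with PD0325901 (2.01, 2.99% of all genes) and at 4OHT day 6 (2.34, 5.05% of all genes). The 1 pluripotent marker tested in total RNA was called higher in long-term KO against untreated (1.81, 7.49% of all genes). The part of all these markers in the results of the 3 experiments was not tested.

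Other *Oas* genes and neighbours were read in the same way. Of 5 other *Oas* genes only *Oas1c* was tested, and the others stayed under 1 FPKM. *Oas1c*, which shares 8.71% of its 50-base words with other *Oas* genes and starts beside *Oas1b*, was 0.266, 0.183 and 0.149 FPKM in untreated libraries and 0.904, 1.40 and 1.47 FPKM at day 5. The interval of *Oas1c* in day 5 replicate 3 reached 0. In long-term KO *Oas1c* was 1.32, 1.14 and 1.09 FPKM, a log2 fold change of 2.11 against untreated and -0.06 against day 5. With TSA it was 3.32 and 2.86 FPKM against 0.272 and 0.449 FPKM (2.82, limma adjusted p = 0.00268), the direction of *Oas1b*. Of 5 genes within 50 kb of a member that are not *Oas* genes, only 2210016L21Rik was tested, and it was called in no comparison.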

How the data were processed

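RNA-seq of *Setdb1* cKO iMEFs was deposited as 27 tables of FPKM per assembled locus, with intervals. Per the labels and the study's methods, the authors depleted rRNA for the total RNA libraries, used TopHat2 2.0.12 to align reads to mm9, where a read with several hits was kept at 1 position, and ran Cufflinks on each library, which gave the FPKM deposited by the authors. Their Cuffdiff tables, which hold the authors' fold changes and p-values, were not used. The 27 libraries form 12 groups of 2 or 3.

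Total RNA loci carry no names and were matched by position to genes, a locus having to cover 95% of the gene. Checked in the named libraries, this gave the same name for at least 99.94% of loci. Joined genes were summed. The log2(FPKM + 0.1) of each experiment were fitted in limma 3.58.1 (R 4.3.3), with all its groups, trended variances and Benjamini-Hochberg adjustment. Genes entered where at least 3 (total RNA) or 2 libraries reached 1 FPKM (9740, 11225 and 11903 genes). Calls needed an adjusted p under 0.05 and a fold change of 2. All tests were two-sided, and 13 comparisons and 2 interactions were made. The fit was tested on simulated data. Ratios were compared by exact permutation tests (scipy 1.17.1), and other steps used Python 3.11.15 with pandas 2.3.3, numpy 2.4.6 and matplotlib 3.10.9.

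Fragments were computed from FPKM and the upper end of its interval, and depth from genes of 1 exon with at least 5 FPKM. The members and lists were chosen with earlier results of these data known. All members, the other *Oas* genes, the listed pathway genes, targeted genes and neighbours within 50 kb were to be named, with the 5 most similar genes. The results of 2 listed pathway genes are not reported here. The deviations of same-numbered libraries of different groups from their group means had correlations of -0.05 to 0.27, not all above 0.1, so the replicate numbers were not used as pairs. Alternatives covered pseudocounts, filters, scaling, groups in the fit, the replicate block, each library left out, the fold limit, the locus cover and joined genes. ChIP-seq and bisulfite data were not used here.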

Additional observations from a re-analysis of the deposited data

How the results depend on the processing

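Depth and replication limit these results. Values under about 0.1 FPKM rest on a few fragments, 2 libraries per group give wide intervals, and the siRNA comparisons rest on a group whose libraries differ. With depth taken from genes of at least 20 FPKM, the median of the total RNA libraries was 15.6 M fragments in place of 31.5 M.

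Of 1103 alternatives for single members in the comparisons given per gene, 997 kept direction and call, 54 lost a call, 47 gained one and 5 turned direction. For members given by counts and ranges, 395 of 430 kept both, 5 gained a call and 30 turned direction. Of 287 alternative counts of called members, 247 stayed within 1.5 times the count reported. With a filter of 5 FPKM the count was 3 for 4OHT day 5 against untreated and 3 for long-term KO against untreated, since fewer members were tested, and the latter was 3 with a pseudocount of 1 and 3 with quantile normalization. With only the groups compared in the fit it was 4 for siDnmt1 against siCtrl, 0 for 4OHT + siCtrl against siCtrl, where 4 units passed the filter, 6 for 4OHT + siDnmt1 against siDnmt1 and 0 for TSA, where 1 unit did. For TSA it was 0 with a pseudocount of 1 and 0 with quantile normalization, under which *Oas1a* + *Oas1g* was -0.96 and *Oas2* was -0.43. Apart from the fewer genes and samples in some of these fits, the cause was not tested.

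When libraries were left out singly, the count of called members ranged from 4 to 5 for 4OHT day 5 against untreated, 4 to 5 for long-term KO against untreated and 2 to 3 for long-term KO against 4OHT day 5. In these 3 comparisons *Oas2* fell under the filter without any 1 day 5 library. It ranged from 0 to 4 for siDnmt1 against siCtrl, 0 to 6 for 4OHT + siCtrl against siCtrl, 1 to 6 for 4OHT + siDnmt1 against siCtrl, 0 to 6 for 4OHT + siDnmt1 against 4OHT + siCtrl, 0 to 6 for 4OHT + siDnmt1 against siDnmt1 and 0 to 4 for their interaction. It ranged from 0 to 3 for TSA, 0 to 1 for 4OHT + PD0325901 against 4OHT day 6, and was 6 for 4OHT day 6 against untreated and for 4OHT + PD0325901 against PD0325901. In 4OHT + siCtrl against siCtrl, *Oas1a* + *Oas1g* ranged from -0.18 and *Oas2* from -0.17 without 4OHT + siCtrl replicate 1 to 5.71 and 5.68 without replicate 2. In 4OHT + siDnmt1 against 4OHT + siCtrl, *Oas1a* + *Oas1g* ranged from -0.11 without that replicate 2 to 5.79 without replicate 1.

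The replicate block, with the number as a covariate, left the count of called members the same in all 15 comparisons and interactions (5, 5, 3, 0, 1, 6, 0, 1, 0, 2, 0, 6, 0, 6 and 0 in the order of the report's experiments). Leaving out joined genes, an alternative chosen after seeing the data, removed *Oas1a* + *Oas1g* and its calls.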

Other observations

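The genes whose levels followed the members most closely, over 27 libraries and 8490 genes tested in all 3 experiments, were *Ifi44* (Pearson r = 0.992), *Cmpk2* (0.989), *Gbp3* + *Gbp7* (0.987), *Isg15* (0.983) and *Mx2* (0.981). The measure was the correlation of log2(FPKM + 0.1), centred on the control group of each experiment, with the mean over 5 member units. It is a description, since the libraries of a group share treatment and experiment. Without 4OHT + siCtrl replicate 2 these values were between 0.982 and 0.994.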
